A study of Homo sapiens with 11 samples.

Results

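The genes described are the cytosolic ribosomal protein genes, which encode the protein part of the ribosomes that translate nuclear mRNAs. They were taken by name from the deposited gene table, as the protein-coding genes whose symbol is RPL or RPS followed by digits and at most 1 letter (A, X or L), together with RPSA, RPLP0, RPLP1 and RPLP2. This rule took 81 of the 58735 genes listed, of which 32 encode proteins of the small subunit (40S) and 49 proteins of the large subunit (60S). It includes the paralogs RPL3L, RPL10L, RPL39L and RPS27L, and it leaves out ribosomal genes with other kinds of symbol, such as FAU, RACK1 and RPL36AL, which were kept as a separate list.

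HEK293T cells, a human embryonic kidney line, were transfected with siRNAs and polyadenylated RNA was sequenced in a strand-specific way to learn which transcripts depend on the ubiquitin-like modifier URM1 and on NAE1 and UBE2M, enzymes that activate and pass on NEDD8 and that the study assigned to URM1 as well. The groups were cells given a control siRNA according to the labels (n = 3 libraries), cells given siRNA against NAE1 at 50 nM (siNAE1, n = 3), against UBE2M at 70 nM (siUBE2M, n = 3) and against URM1 at 60 nM (siURM1, n = 2), all harvested 48 h after transfection. The study's methods and reagent list also name a non-targeting siRNA, but no dose is given for it, and a supplementary plot of these libraries uses a name for the control that could stand for untransfected cells, so a part of transfection itself in the differences was not tested. The labels call the libraries biological replicates without saying whether these were separate cultures, so p-values measure the spread between these libraries, which may be partly technical.

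Ribosomal proteins assemble with ribosomal RNA in the nucleolus, and a shortage of a single protein can hold up the subunit it belongs to. Most of their mRNAs begin with a C followed by a run of pyrimidines, the 5′ terminal oligopyrimidine (TOP) motif, through which mTORC1 and LARP1 set their translation and stability together. When assembly is disturbed, free RPL5 and RPL11 bind MDM2 and stabilise p53, and several ribosomal proteins, RPL11 among them, are known to carry NEDD8.

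Total counts per library were between 11733163 and 16321391, and 18368 genes passed the filter on low counts. The targeted genes were examined before the others, in counts scaled by TMM and library size (CPM). NAE1 had 98.9, 109 and 99.0 CPM in the control libraries and 41.6, 42.6 and 35.2 CPM in the siNAE1 libraries, or 38.9% of control. UBE2M had 263, 268 and 264 CPM in the control libraries and 15.6, 15.6 and 19.1 CPM in siUBE2M, or 6.34% of control. URM1 had 54.4, 51.0 and 55.4 CPM in the control libraries and 15.2 and 15.5 CPM in siURM1, or 28.6% of control. Each targeted gene was therefore lower in every library of its own knockdown than in every control library, as the labels say. Transcripts that mark HEK293T cells (VIM, CDH2, NEFM, PAX2 and LHX1) summed to 359 to 385 CPM of the unscaled total in control libraries, 470.1 to 497 in siNAE1, 486 to 563 in siUBE2M and 584 to 633 in siURM1, with VIM the most abundant in every library. Of these 5 markers, 2 were called higher in siNAE1, 1 higher and 1 lower in siUBE2M, and 5 higher in siURM1, and their part in the results was not tested. The hepatocyte markers ALB, AFP, APOA1, APOB and FGB together had between 2 and 14 counts in a library, with APOB at 0 in all 11 libraries. The fibroblast and blood markers COL1A2, DCN, LUM, PTPRC and CD3E had between 3 and 30, nearly all of them from LUM, with CD3E at 0. LUM, at 3 to 27 counts in a library, was higher in the knockdowns, by 1.64 in siNAE1, 2.09 in siUBE2M and 1.82 in siURM1, and its part in the results was not tested. Markers of the labelled line were thus present, and those of the other cell types were nearly absent.

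Levels of different genes were compared with the authors' FPKM, which scale counts by gene length. In control cells RPS2, a 40S protein near the mRNA entry channel, had the highest level of the list with 1987 ± 99.8 FPKM (SD, n = 3). RPL8 followed with 1156 ± 58.2 FPKM and RPL41, the shortest protein of the ribosome, with 1137 ± 87.0 FPKM. The median member had 279 FPKM in control cells. The order depends on the length used, since the listed gene length was a median of 2.94 times the length of the canonical transcript, and with canonical lengths RPS2 stayed in place 1 while RPL8 moved from place 2 to 5 and RPL41 from place 3 to 16.

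At the bottom of the list stood genes with a special expression or with a counting limit. RPL10L, a retrogene used mainly in testis, had 0 counts in all 11 libraries, which allows at most 0.184 to 0.256 CPM depending on the library, and it was the 1 member not tested. RPL3L, which replaces RPL3 in heart and skeletal muscle, had 0.663 ± 0.129 FPKM in control cells. RPS10, RPL17 and RPL36A are core proteins of every ribosome, yet had only 35 to 76 counts for RPS10, 194 to 246 for RPL17 and 357 to 497 for RPL36A in the control libraries. In GENCODE v44, exons of another gene on the same strand cover 84.0% of the canonical RPS10 transcript (RPS10-NUDT3), 96.9% of RPL17 (RPL17-C18orf32) and 43.8% of RPL36A (RPL36A-HNRNPH2), and cover 65.3% of RPL26. The read-through genes held only 6 counts (RPS10-NUDT3), 6 counts (RPL17-C18orf32) and 2 counts (RPL36A-HNRNPH2) over the 11 libraries. How the counting treated reads in such overlaps is not given in the sources used here, so the levels and changes of these 4 members rest on the part of their reads that was counted and are uncertain.

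Members also share sequence with processed pseudogenes. Of 1132 pseudogenes named for members, 573 had counts, and together they amounted to between 3.57% and 4.22% of the members' counts in each library. The copy with the highest share was RPS28P7, with 196% of the counts of RPS28, followed by RPS10P3 with 55.8% of RPS10, RPS2P5 with 22.2% of RPS2, RPL26P19 with 22.2% of RPL26 and RPL39P3 with 11.8% of RPL39. How reads that match several places were counted is not given in the sources used here, so fold changes of these members may mix the gene and its copies.

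The bases around the transcription start of 6 members are shown because they hold the TOP motif that the list is known for, in members that later stand out as lower (RPLP0, RPL26) or higher (RPL7A, RPS9), and in a pair of paralogs that differ in it (RPS27, RPS27L). They come from RefSeq on GRCh38.p14, 15 bases before and 15 from the start base, read on the gene's own strand. Capitals mark the run of pyrimidines that begins with a C at the start base, which in RPL7A goes on past the printed window to 16 bases. The positions are chr12:120201097-120201126 (minus strand) for RPLP0, chr17:8383179-8383208 (minus strand) for RPL26, chr9:133348203-133348232 (plus strand) for RPL7A, chr19:54200843-54200872 (plus strand) for RPS9, chr1:153990747-153990776 (plus strand) for RPS27 and chr15:63157463-63157492 (minus strand) for RPS27L.
RPLP0: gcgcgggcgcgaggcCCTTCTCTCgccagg
RPL26: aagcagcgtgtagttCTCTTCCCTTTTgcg
RPL7A: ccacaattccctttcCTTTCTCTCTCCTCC
RPS9: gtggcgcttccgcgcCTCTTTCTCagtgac
RPS27: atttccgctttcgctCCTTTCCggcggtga
RPS27L: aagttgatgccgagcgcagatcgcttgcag
Among the 6 windows, only that of RPS27L has no such run. Runs were read from the annotated start base alone, so a member without one here may still carry the motif at another start base. RefSeq starts were found for 64 of the 81 members, and 46 of them (71.9%) had a C at the start base followed by at least 4 bases that were each C or T on the gene's strand, against 1404 of 27305 genes (5.14%) in the whole promoter table. The share was 72% in 40S members (18 of 25) and 71.8% in 60S members (28 of 39), and 6 of 67 genes (8.96%) among the mitochondrial ribosomal proteins.

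The members took up 8.55, 9.29 and 8.54% of all counts in the control libraries, 9.19, 9.77 and 10.04% in siNAE1, 9.84, 9.69 and 10.84% in siUBE2M, and 9.87 and 10.4% in siURM1. All siUBE2M and siURM1 libraries and 2 of the 3 siNAE1 libraries lay above every control library, while siNAE1 replicate 1 lay within the control range, below control replicate 2. The group means were 8.79 ± 0.432% (SD, n = 3) in control, 9.67 ± 0.435% (n = 3) in siNAE1, 10.1 ± 0.627% (n = 3) in siUBE2M and 10.1 ± 0.371% (n = 2) in siURM1, and a sum over genes chosen by name was given no test. The share of mitochondrially encoded transcripts also moved with the groups, from 4.57 to 4.93% in control, with replicate 2 again the highest, to 4.899 to 5.32% in siNAE1, 4.12 to 4.43% in siUBE2M, and 5.29 and 5.72% in siURM1. Without these transcripts the members took up 8.94 to 9.77% in control, 9.66 to 10.6% in siNAE1, 10.1 to 11.3% in siUBE2M, and 10.4 and 11.03% in siURM1. These are shares of counts, so a rise of the members and a fall of other transcripts cannot be told apart. The amount of RNA per cell cannot be read from them either. Control replicate 2 stood apart from the other control libraries, with 78 of the 80 tested members above the control mean, against 10 of 80 in each of the others. As a median over the members, the log2 difference from the control mean was -0.06, 0.09 and -0.03 in the control libraries, 0.19, 0.34 and 0.38 in siNAE1, 0.16, 0.14 and 0.31 in siUBE2M, and 0.23 and 0.32 in siURM1. Every knockdown library was thus above every control library on this measure, by the least for siUBE2M replicate 2. The same median over all genes tested stayed between -0.01 and 0.02 in all libraries. These medians use TMM-scaled counts, and that scaling itself holds the median of all genes near 0.

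**Figure D1:**
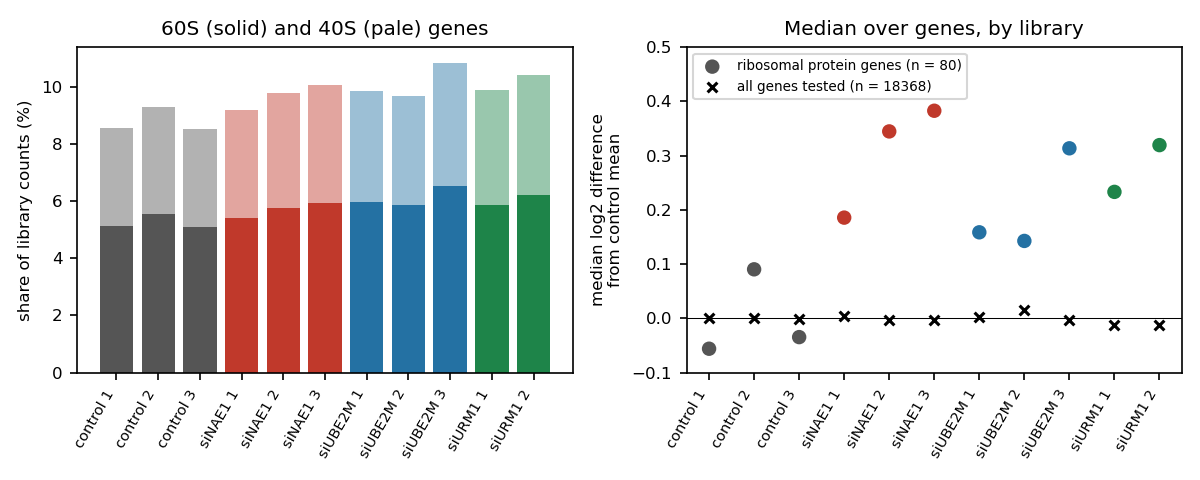
Left, share of each library's counts in 60S genes (solid) and 40S genes (pale) in %, by library and coloured by group. Right, median log2 difference from the control mean over the 80 tested members (circles) and over all 18368 genes tested (crosses). Values are TMM-scaled, which itself holds the crosses near 0. The knockdown circles lie between 0.14 and 0.38, above the control circles at -0.06, 0.09 and -0.03.

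Compared with control, most members were higher in each knockdown by a modest amount. In siNAE1, 57 of the 80 tested members were called higher and 6 lower (adjusted p under 0.05), against 27.6% higher and 27.1% lower among all genes tested, and the median log2 fold change of the members was 0.30 against -0.00 for all genes. In siUBE2M, 48 members were higher and 2 lower, against 22.7% and 22.6% of all genes, with a median of 0.20 against 0.01. In siURM1, 53 members were higher and 3 lower, against 20.8% and 20.8% of all genes, with a median of 0.29 against -0.02. Both subunits took part, with 26, 20 and 22 of the 32 tested 40S members and 31, 28 and 31 of the 48 tested 60S members called higher in siNAE1, siUBE2M and siURM1. The interquartile range of the members went from 0.14 to 0.41 in siNAE1, 0.11 to 0.38 in siUBE2M, and 0.16 to 0.37 in siURM1 on the log2 scale. The 3 comparisons use the same control libraries, so a shift in those libraries would enter all of them. The lower members were RPLP0, RPL26, RPS23, RPL12, RPL9 and RPL39L in siNAE1, and RPL39L, RPL3L and RPL5 in siURM1, where only 1 remained without siURM1 replicate 1. In siUBE2M they included RPL39L, and 1 lower member remained without control replicate 1 or without siUBE2M replicate 2. Leaving out 1 library at a time, the counts of higher members ranged from 54 to 61 in siNAE1, from 35 (without siUBE2M replicate 3) to 56 in siUBE2M, and from 39 (without siURM1 replicate 2) to 59 in siURM1. Each highest value was reached without control replicate 2. In siUBE2M it was also reached without siUBE2M replicate 2, and in siURM1 without siUBE2M replicate 3. Scaling by total counts shifted the median of all genes to -0.13, -0.05 and -0.11, and the members, still above it, then had medians of 0.18, 0.14 and 0.20 with 46, 40 and 44 called higher and 10, 3 and 5 lower.

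Few members passed the fold change threshold of the study, a log2 change of 1 or more in either direction at an adjusted p under 0.05 (DEGs). In siNAE1, 2 members were DEGs, RPL39L and RPLP0, both lower, where 5.3% of all genes were higher DEGs and 8.61% lower DEGs. In siUBE2M, 1 member was a DEG, RPS10, which was higher, where 3.22% of all genes were higher DEGs and 3.89% lower DEGs. In siURM1, 1 member was a DEG, RPL3L, which was lower, where 2.89% of all genes were higher DEGs and 4.73% lower DEGs. Both siNAE1 calls are near the threshold: RPLP0 had -0.97 without siNAE1 replicate 1 and -0.98 without control replicate 2, and without siNAE1 replicate 2 RPL39L had -0.96, which left 1 DEG. In the first 2 of these fits the count stayed at 2, so another member passed in place of RPLP0. Without control replicate 1, RPS10 passed as a higher member in siNAE1 (1.08), which gave 3 DEGs. RPS10 in siUBE2M had 0.74 with pseudogene counts added and 0.88 by limma on log2 FPKM with 1 added, both below the threshold. Limma on FPKM left 0 DEGs in siURM1 in each of its settings. In siURM1, 0 DEGs remained without control replicate 1 or without siURM1 replicate 1. A DEG share in the members below that of all genes was thus seen in every knockdown, with small changes in many members in place of large changes in a few.

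**Figure D2:**
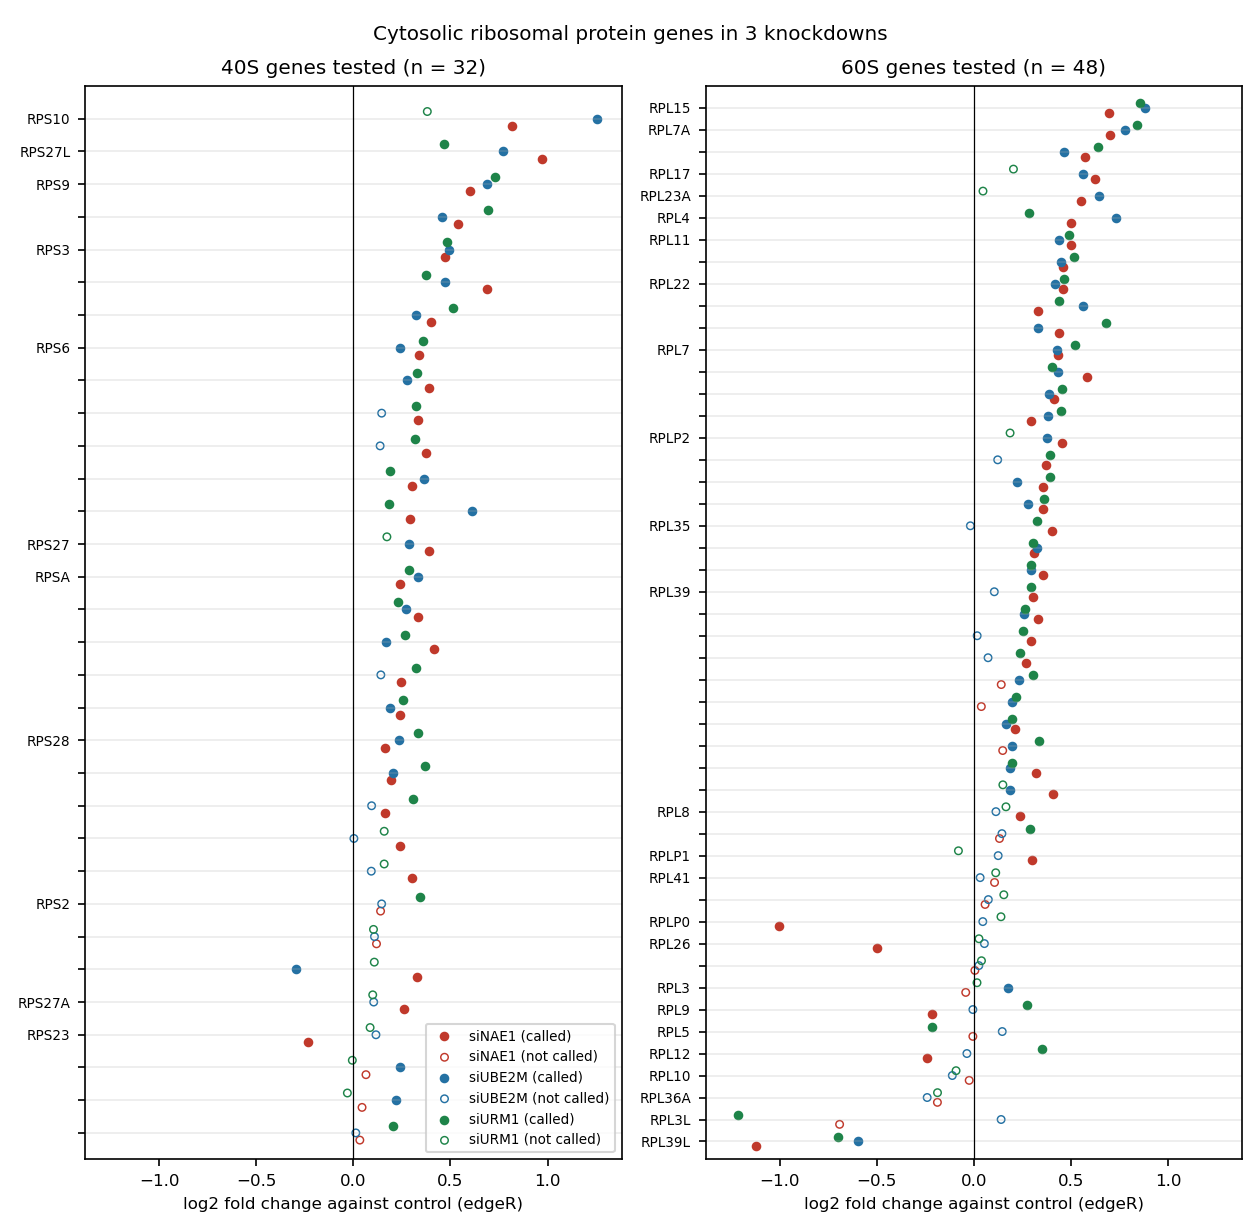
Log2 fold change against control of the 32 tested 40S genes (left) and 48 tested 60S genes (right) in siNAE1, siUBE2M and siURM1, sorted by the median of the 3 knockdowns; filled points were called at an adjusted p under 0.05 by edgeR and open points were not, and genes named in the text are labelled. Most points lie to the right of 0, while RPLP0 and RPL26 lie to the left in siNAE1 and RPL39L to the left in all 3 knockdowns.

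RPLP0 (ENSG00000089157, chr12:120196686-120201235 on GRCh38, minus strand) encodes the protein that anchors the stalk of the 60S subunit, to which pairs of RPLP1 and RPLP2 bind and which recruits the elongation factors. It had 2321, 2377 and 2232 CPM in the control libraries, 1104, 1174 and 1177 CPM in siNAE1, 2344, 2251 and 2561 CPM in siUBE2M, and 2503 and 2589 CPM in siURM1. The 3 siNAE1 libraries lay far below all 8 other libraries, with a mean of 49.9% of control. The log2 fold change in siNAE1 was -1.00 (SE 0.06, adjusted p = 1.4e-15, edgeR quasi-likelihood test, Benjamini-Hochberg), lower in 3 of 3 libraries. In siUBE2M and siURM1 it was 0.05 and 0.14 (adjusted p = 0.54 and 0.078, edgeR quasi-likelihood test, Benjamini-Hochberg), neither of them called. In siURM1, however, DESeq2 called it higher (0.14, adjusted p = 0.044), as did edgeR with 2 groups per fit (adjusted p = 0.041), with the gene length trend removed (adjusted p = 0.028) or without siUBE2M replicate 3 (adjusted p = 0.042). The difference between the knockdowns passed the test itself, at -1.05 for siNAE1 relative to siUBE2M and -1.14 relative to siURM1 (adjusted p = 2.3e-15 and 2.5e-15, edgeR quasi-likelihood test, Benjamini-Hochberg). The pseudogene RPLP0P6 moved alongside, with 90.0, 94.4 and 83.3 CPM in control and 41.9, 47.4 and 45.8 CPM in siNAE1, and whether its reads come from RPLP0 was not tested.

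The partners of RPLP0 on the stalk did not share its decrease. RPLP1 had 1165, 1237 and 1121 CPM in the control libraries and 1319.8, 1495 and 1523 CPM in siNAE1, and RPLP2 had 532, 611 and 507 CPM in the control libraries and 710.2, 759.8 and 793 CPM in siNAE1. For both genes all siNAE1 libraries lay above all control libraries. RPLP1 rose by a log2 fold change of 0.30 (SE 0.07, adjusted p = 0.00027, edgeR quasi-likelihood test, Benjamini-Hochberg) and RPLP2 by 0.46 (SE 0.08, adjusted p = 5.7e-06, edgeR quasi-likelihood test, Benjamini-Hochberg). The ratio of RPLP0 counts to the summed counts of RPLP1 and RPLP2 was accordingly 1.37, 1.29 and 1.37 in control libraries, 0.544, 0.521 and 0.508 in siNAE1, 1.21, 1.23 and 1.16 in siUBE2M, and 1.54 and 1.40 in siURM1. The siNAE1 ratios stood below all others, those of siUBE2M were below the control range and those of siURM1 above it. RPL12, which binds rRNA at the base of the stalk, had 1157, 1320.2 and 1176 CPM in the control libraries, 943, 1059 and 1084 CPM in siNAE1 and 1487 and 1624 CPM in siURM1. It was lower in all siNAE1 libraries and higher in both siURM1 libraries than in any control library, with log2 fold changes of -0.24 (SE 0.07) and 0.35 (SE 0.08) and adjusted p = 0.0036 and 0.00036 (edgeR quasi-likelihood test, Benjamini-Hochberg).

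**Figure D3:**
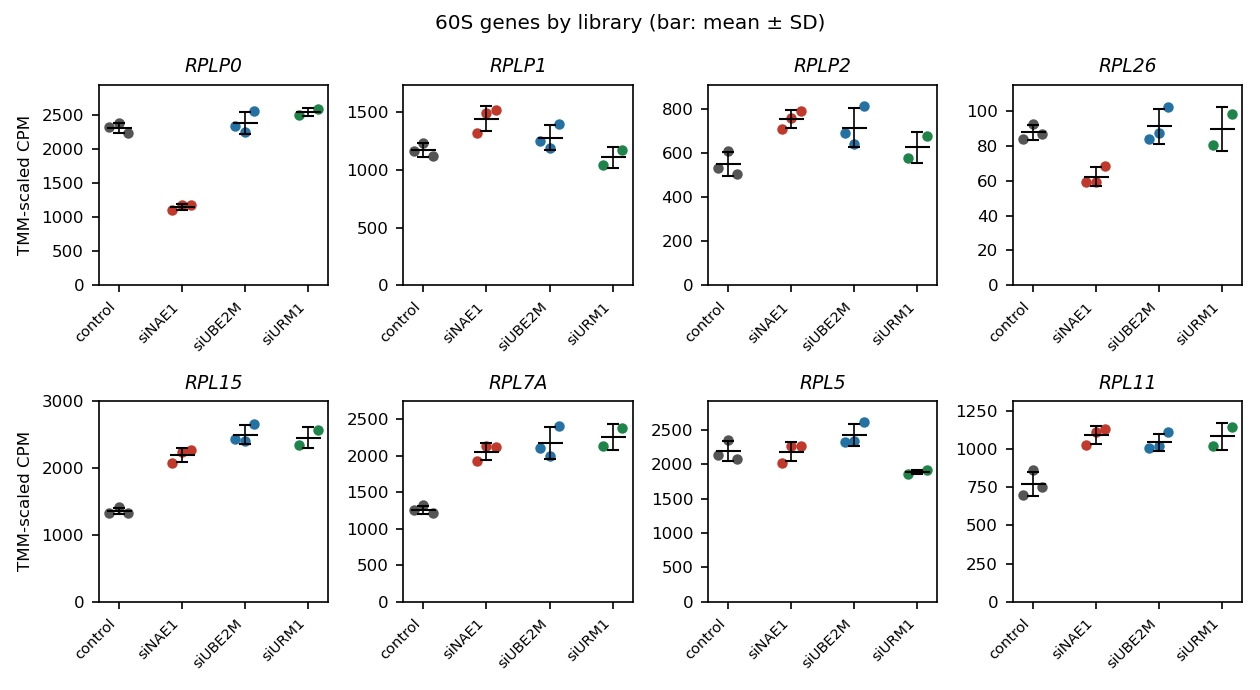
TMM-scaled CPM of RPLP0, RPLP1, RPLP2, RPL26, RPL15, RPL7A, RPL5 and RPL11 in each library (points), by group, with the mean and SD of each group as bars; each axis starts at 0. RPLP0 is between 1104 and 1177 CPM in siNAE1 and between 2232 and 2589 CPM in the other groups, while RPL15 and RPL7A are higher in all knockdown libraries than in all control libraries.

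RPL26 (ENSG00000161970, chr17:8377516-8383250, minus strand) lies close to the exit of the peptide tunnel and is the ribosomal protein that receives the ubiquitin-like modifier UFM1 at the endoplasmic reticulum. It had 84.1, 92.6 and 87.3 CPM in the control libraries, 59.4, 59.2 and 68.7 CPM in siNAE1, 84.2, 87.3 and 103 CPM in siUBE2M, and 80.9 and 98.6 CPM in siURM1. The siNAE1 libraries were below all others, and the other groups overlapped each other. The log2 fold change was -0.50 in siNAE1 (SE 0.08, adjusted p = 7.6e-06, edgeR quasi-likelihood test, Benjamini-Hochberg), against 0.05 and 0.03 in siUBE2M and siURM1, which were not called (adjusted p = 0.62 and 0.84, edgeR quasi-likelihood test, Benjamini-Hochberg). The difference of siNAE1 from siUBE2M was -0.55 and from siURM1 -0.52 (adjusted p = 2.5e-06 and 3.2e-05, edgeR quasi-likelihood test, Benjamini-Hochberg). The copy RPL26P19 had 18.5, 20.9 and 21.0 CPM in the control libraries and 8.91, 9.58 and 9.24 CPM in siNAE1, and its part in the change of RPL26 was not tested. The other members called lower in siNAE1 were RPS23, RPL12, RPL9 and RPL39L, with RPS23, a protein of the decoding centre, at -0.23 (SE 0.06) and RPL9 at -0.21 (SE 0.07). RPS23, RPL9 and RPL12 were named after their values were seen, to complete this short list. RPL9, like RPL12, was higher than control in siURM1, at 0.28 (SE 0.07, adjusted p = 0.0027, edgeR quasi-likelihood test, Benjamini-Hochberg).

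Among the paralogs, RPL39L and RPS27L moved in opposite directions. RPL39L (ENSG00000163923, chr3:187120948-187180908, minus strand), a copy of RPL39 best known from testis and from cancer cells, had 18.7, 18.8 and 17.9 CPM in the control libraries, 9.83, 6.64 and 9.15 CPM in siNAE1, 12.3, 12.6 and 11.7 CPM in siUBE2M, and 11.8 and 10.9 CPM in siURM1. All knockdown libraries were below all control libraries, and the siNAE1 libraries were the lowest. The log2 fold changes were -1.12 (SE 0.13), -0.60 (SE 0.12) and -0.70 (SE 0.14), with adjusted p = 1.1e-08, 0.00018 and 0.00014 (edgeR quasi-likelihood test, Benjamini-Hochberg). RPL39 itself, which lines the narrow part of the exit tunnel, had 909.9, 1128 and 1043 CPM in control libraries and 1167, 1294 and 1349 CPM in siNAE1, above all control libraries. It rose in siNAE1 by 0.31 and in siURM1 by 0.30 (adjusted p = 0.00048 and 0.0029, edgeR quasi-likelihood test, Benjamini-Hochberg). The call in siURM1 was lost without siURM1 replicate 2 (0.21, adjusted p = 0.093, same test) and by limma on FPKM.

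RPS27L (ENSG00000185088, chr15:63125872-63158021, minus strand), a paralog of RPS27 and a known target of p53, had 23.2, 30.7 and 25.6 CPM in the control libraries, 48.4, 56.1 and 51.4 CPM in siNAE1, 47.6, 42.4 and 45.9 CPM in siUBE2M, and 35.8 and 37.6 CPM in siURM1. All knockdown libraries were above all control libraries, with siNAE1 and siUBE2M above siURM1. The log2 fold changes were 0.97 (SE 0.09), 0.77 (SE 0.09) and 0.47 (SE 0.10), with adjusted p = 2e-10, 4.4e-08 and 0.00052 (edgeR quasi-likelihood test, Benjamini-Hochberg). RPS27 had 545 ± 46.9 CPM in control (SD, n = 3) and 715 ± 52.6 CPM in siNAE1 (n = 3), with log2 fold changes of 0.39, 0.29 and 0.17 in the 3 knockdowns and adjusted p = 6.6e-06, 0.00052 and 0.057 (edgeR quasi-likelihood test, Benjamini-Hochberg). RPS27L was the only gene of this pair without a TOP run at its RefSeq start, and its FPKM in control cells was 2.88 ± 0.431 against 523 ± 47.1 for RPS27.

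**Figure D4:**
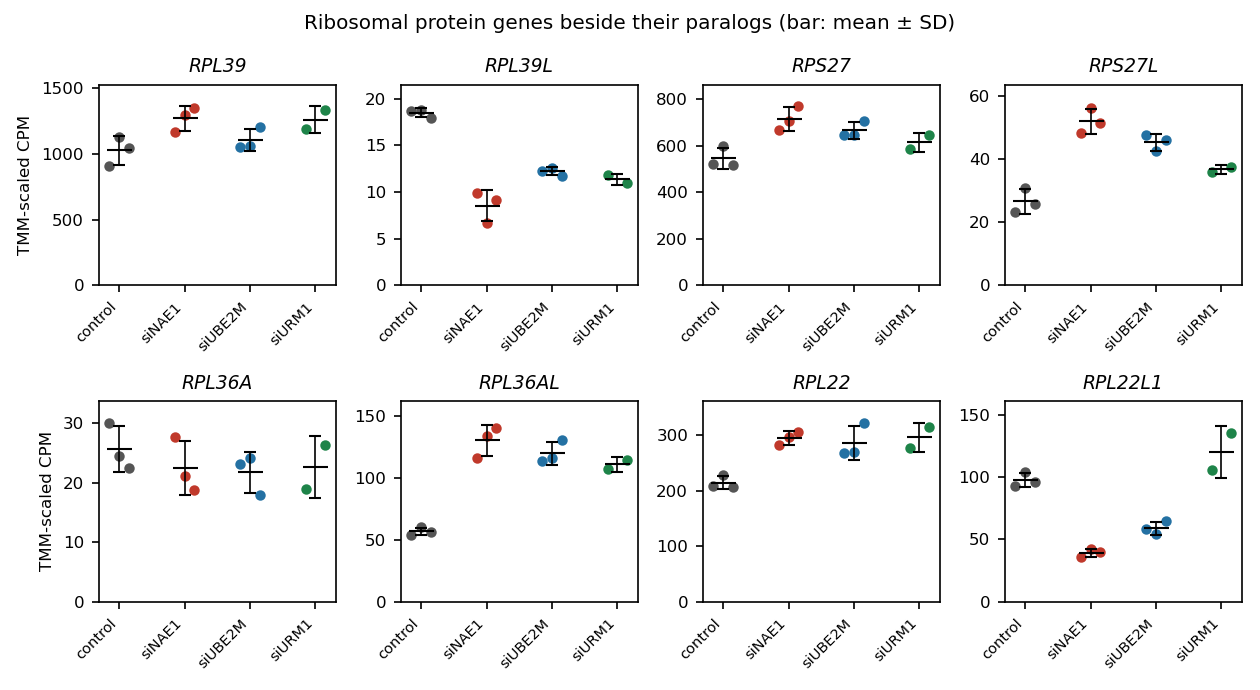
TMM-scaled CPM of 4 ribosomal protein genes, RPL39, RPS27, RPL36A and RPL22, each beside its paralog, in each library (points), by group, with the mean and SD of each group as bars; each axis starts at 0. RPL39L is lower and RPS27L and RPL36AL are higher in all knockdown libraries than in all control libraries, and RPL22L1 is lower in siNAE1 and siUBE2M.

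The remaining paralogs gave less to read. RPL3L had only 36, 31 and 23 counts in the control libraries, 16, 17 and 11 in siNAE1, 21, 34 and 33 in siUBE2M, and 11 and 13 in siURM1. Its log2 fold change in siURM1 was -1.22 (SE 0.41, adjusted p = 0.018, edgeR quasi-likelihood test, Benjamini-Hochberg). Without control replicate 1 it was -1.07 (adjusted p = 0.068, edgeR quasi-likelihood test, Benjamini-Hochberg) and without siURM1 replicate 1 it was -1.03 (adjusted p = 0.15, same test), so the call depends on single libraries at this depth. RPL3L was not called in siNAE1, except with total-count scaling (-0.81, adjusted p = 0.048, same test) and by limma on FPKM. The limma values were -0.58 with 0.1 added (adjusted p = 0.04, limma) and -0.24 with 1 added (adjusted p = 0.032, limma). RPL3, the gene used in HEK293T cells, had 3349 ± 185 CPM in control (SD, n = 3), and its log2 fold changes were -0.04, 0.18 and 0.02 with adjusted p = 0.59, 0.017 and 0.87 (edgeR quasi-likelihood test, Benjamini-Hochberg). The RPL3 call in siUBE2M was lost without control replicate 1 (0.18, adjusted p = 0.055), control replicate 3 (0.15, adjusted p = 0.11) or siUBE2M replicate 3 (0.12, adjusted p = 0.1), by the same test, and by limma on FPKM. With total-count scaling it was lost too (0.12, adjusted p = 0.055, same test), and RPL3 was called lower in siNAE1 (-0.17, adjusted p = 0.0063, same test). RPL10, beside which RPL10L was not detected, had 2225 ± 82.1 CPM in control and was called in none of the knockdowns, at -0.02, -0.11 and -0.09 (adjusted p = 0.77, 0.14 and 0.3, edgeR quasi-likelihood test, Benjamini-Hochberg). With total-count scaling RPL10 was called lower in each of them, at -0.15, -0.17 and -0.18 (adjusted p = 0.015, 0.0081 and 0.012, same test). Without siUBE2M replicate 3 it was called lower in siUBE2M (-0.17, adjusted p = 0.02, same test).

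RPL15, RPL7A and RPS9 were core members that rose clearly in every knockdown. RPL15 (ENSG00000174748, chr3:23916545-23924374, plus strand), a 60S protein needed for the processing of its rRNA, had 1330.1, 1412 and 1332 CPM in the control libraries, 2071, 2241 and 2278 CPM in siNAE1, 2433, 2405 and 2664 CPM in siUBE2M, and 2348 and 2568 CPM in siURM1. No knockdown library overlapped the control range, and the lowest of them was still well above the highest control library. Its log2 fold changes were 0.69, 0.88 and 0.86 (SE 0.06, 0.06 and 0.06), with adjusted p = 1.3e-11, 1.4e-13 and 2.7e-12 (edgeR quasi-likelihood test, Benjamini-Hochberg).

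RPL7A (ENSG00000148303, chr9:133348214-133351426, plus strand), a 60S protein whose introns also hold snoRNAs, had 1249, 1322 and 1215 CPM in the control libraries, 1923, 2127 and 2114 CPM in siNAE1, 2101, 1994 and 2411 CPM in siUBE2M, and 2134 and 2384 CPM in siURM1. Again all knockdown libraries were above all control libraries, while the knockdowns overlapped each other. The log2 fold changes were 0.70, 0.78 and 0.84 (SE 0.07, 0.07 and 0.07), with adjusted p = 9.6e-11, 2.1e-11 and 3.9e-11 (edgeR quasi-likelihood test, Benjamini-Hochberg). RPS9 (ENSG00000170889, chr19:54200742-54249003, plus strand), an early-binding 40S protein, had 709.7, 757 and 710.3 CPM in the control libraries, 984, 1141 and 1182 CPM in siNAE1, 1127, 1117 and 1262 CPM in siUBE2M, and 1264 and 1147 CPM in siURM1. It rose in all 3 knockdowns with no overlap with control, by 0.60, 0.69 and 0.73 on the log2 scale (SE 0.07, 0.07 and 0.07; adjusted p = 2.5e-09, 3.3e-10 and 8.1e-10, edgeR quasi-likelihood test, Benjamini-Hochberg). The printed start windows of RPL7A and RPS9, which rose, and of RPLP0 and RPL26, which fell in siNAE1, all hold a pyrimidine run. RPS23 and RPL12, also lower in siNAE1, had a run at their RefSeq starts as well. In contrast, RPL15, which rose, and RPL9, which was lower in siNAE1, had none at the annotated start base.

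RPL5 and RPL11, which bind MDM2 together with 5S rRNA, differed from each other. RPL11 had 703, 861 and 754 CPM in the control libraries, 1026, 1116 and 1134 CPM in siNAE1, 1008, 1019 and 1111 CPM in siUBE2M, and 1023 and 1147 CPM in siURM1. It was above control in all 8 knockdown libraries, with log2 fold changes of 0.50, 0.44 and 0.49 (SE 0.07, 0.07 and 0.07; adjusted p = 1.5e-07, 2.4e-06 and 2.4e-06, edgeR quasi-likelihood test, Benjamini-Hochberg). RPL5 had 2133, 2358 and 2080.5 CPM in the control libraries, 2023, 2268 and 2259.6 CPM in siNAE1, 2323, 2337 and 2615 CPM in siUBE2M, and 1864 and 1910.2 CPM in siURM1. Both siURM1 libraries lay below every control library, while siNAE1 and siUBE2M overlapped the control range. The log2 fold change there was -0.22 (SE 0.07, adjusted p = 0.013, edgeR quasi-likelihood test, Benjamini-Hochberg), against -0.00 and 0.15 in siNAE1 and siUBE2M (adjusted p = 0.96 and 0.053, edgeR quasi-likelihood test, Benjamini-Hochberg). Without control replicate 2 the value in siURM1 was -0.15 (adjusted p = 0.13, edgeR quasi-likelihood test, Benjamini-Hochberg) and without siURM1 replicate 1 it was -0.19 (adjusted p = 0.093, same test). In limma on FPKM with 0.1 added it had adjusted p = 0.088. The value in siUBE2M was called under several alternatives, among them the fit without control replicate 2 (0.21, adjusted p = 0.014, same test) and with the gene length trend removed (0.17, adjusted p = 0.012, same test). With total-count scaling RPL5 was called lower in siNAE1 (-0.13, adjusted p = 0.036, same test). For siUBE2M relative to siURM1 the difference in RPL5 was 0.36 (SE 0.07, adjusted p = 0.00012, edgeR quasi-likelihood test, Benjamini-Hochberg).

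Other members were named for their roles. RPS3, a 40S protein at the mRNA entry with a further role in DNA repair, rose by 0.47, 0.49 and 0.48 on the log2 scale in siNAE1, siUBE2M and siURM1 from 2138 ± 82.9 CPM in control (SD, n = 3), with adjusted p = 1.9e-07, 1.7e-07 and 1.7e-06 (edgeR quasi-likelihood test, Benjamini-Hochberg). RPSA, which is also known as the laminin receptor, rose by 0.24, 0.33 and 0.29 from 2458 ± 93.0 CPM, and RPS6, the substrate of the S6 kinases, by 0.34, 0.24 and 0.36 from 1939 ± 243 CPM. In RPS6, control replicate 2, at 2207 CPM, overlapped the siUBE2M libraries. The call of RPSA in siNAE1 had adjusted p = 0.0013 (edgeR quasi-likelihood test, Benjamini-Hochberg) and was lost with total-count scaling (0.11, adjusted p = 0.056, same test). The rise of RPS6 in siUBE2M had adjusted p = 0.0064 (edgeR quasi-likelihood test, Benjamini-Hochberg). That call was lost without control replicate 1 (0.17, adjusted p = 0.082, same test) and without siUBE2M replicate 3 (0.16, adjusted p = 0.065, same test). It was also lost by DESeq2 (adjusted p = 0.081) and by limma. RPS27A, which is made as a fusion with ubiquitin, had 891 ± 44.6 CPM in control and rose in siNAE1 by 0.26 (SE 0.07, adjusted p = 0.0027, edgeR quasi-likelihood test, Benjamini-Hochberg), while its changes of 0.10 and 0.10 in siUBE2M and siURM1 were not called. The call of RPS27A in siNAE1 was lost by limma on FPKM and with total-count scaling (0.14, adjusted p = 0.081, edgeR). The most abundant members had values below the member median of the same knockdown, except RPS2 in siURM1 (0.34 against 0.29). RPS2 was at 0.14, 0.15 and 0.34, RPL8 at 0.24, 0.11 and 0.17, and RPL41 at 0.11, 0.03 and 0.11. Of these 9 values, those of RPS2 in siURM1 (adjusted p = 0.00024) and RPL8 in siNAE1 (adjusted p = 0.0017) were called (edgeR quasi-likelihood test, Benjamini-Hochberg), and each call was lost by limma on FPKM with 0.1 or 1 added. That of RPL8 was also lost with total-count scaling (0.11, adjusted p = 0.073, edgeR). Uncalled values near the threshold passed it under some alternatives. RPL8 in siURM1 did so by DESeq2 (0.17, adjusted p = 0.046), and RPS2 did so without control replicate 2 in siNAE1 (0.18, adjusted p = 0.042, edgeR) and siUBE2M (0.19, adjusted p = 0.037, edgeR).

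The low-count core members gave values that apply only to the reads assigned to them. RPS10, which sits on the head of the 40S subunit, had 76, 57 and 35 counts in the control libraries, 66, 100 and 68 in siNAE1, 112, 133 and 110 in siUBE2M, and 78 and 59 in siURM1. All siUBE2M libraries were above all control libraries. Its log2 fold changes were 0.82 (SE 0.21) in siNAE1 and 1.26 (SE 0.20) in siUBE2M, with adjusted p = 0.0016 and 6.1e-06 (edgeR quasi-likelihood test, Benjamini-Hochberg). With the counts of its pseudogenes added, these became 0.45 and 0.74 (adjusted p = 0.025 and 0.00033, same test), so the size of the change depends on how reads are shared with the copies. In siURM1 the value was 0.38, which was not called except without control replicate 1 (0.66, adjusted p = 0.042, same test). RPL36A, at 25.6 ± 3.89 CPM in control, had overlapping groups and values of -0.19, -0.24 and -0.19 that were not called (adjusted p = 0.25, 0.15 and 0.34, edgeR quasi-likelihood test, Benjamini-Hochberg); without siNAE1 replicate 1 the value in siNAE1 was -0.36 (adjusted p = 0.038, same test).

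The balance of the subunits was close to constant. The ratio of 60S to 40S counts was 1.51, 1.49 and 1.49 in control libraries, 1.44, 1.43 and 1.44 in siNAE1, 1.54, 1.53 and 1.52 in siUBE2M, and 1.47 and 1.49 in siURM1. The siNAE1 libraries were the lowest and the siUBE2M libraries the highest. Leaving out RPLP0, the ratio was 1.42 to 1.44 in control, 1.406 to 1.409 in siNAE1, 1.46 to 1.48 in siUBE2M, and 1.41 and 1.43 in siURM1, so much of the gap between siNAE1 and control lay in RPLP0 counts.

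Compared with each other, the knockdowns differed in some members, in both directions. Relative to siUBE2M, 15 of the 80 members were higher and 14 lower in siNAE1, against 22.7% and 21.6% of all genes, with a median of 0.05. Relative to siURM1, 11 were higher and 12 lower in siNAE1, against 19.5% and 19.1% of all genes, and 10 were higher and 13 lower in siUBE2M, against 16.7% and 18.3% of all genes, with medians of -0.00 and -0.05. These shares are below those of all genes. They depend on the scaling, since with total counts the splits were 8 higher and 22 lower, 10 and 21, and 15 and 10, and the median for siNAE1 relative to siUBE2M turned to -0.02, with -0.08 for all genes. They also depend on single libraries. The 29 members called between siNAE1 and siUBE2M became 27 higher and 8 lower without siUBE2M replicate 3, while 7 were higher without siUBE2M replicate 1 or 2. The 23 called between siNAE1 and siURM1 became 12 without siURM1 replicate 1 and 15 without siURM1 replicate 2 or siNAE1 replicate 2. The 23 called between siUBE2M and siURM1 became 14 without siUBE2M replicate 1 and 15 without siURM1 replicate 2. The split of 11 higher and 12 lower between siNAE1 and siURM1 became 14 and 7 without siNAE1 replicate 1, 6 and 16 without siNAE1 replicate 3, 4 and 8 without siURM1 replicate 1, and 10 and 5 without siURM1 replicate 2. Between siUBE2M and siURM1, the split of 10 higher and 13 lower became 7 and 23 without siUBE2M replicate 3, 5 and 14 without siURM1 replicate 1, and 11 and 4 without siURM1 replicate 2, so the direction in both pairs depends on single libraries.

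Beyond RPLP0 and RPL26, RPL35 was higher in siNAE1 than in siUBE2M, by 0.42 (SE 0.07, adjusted p = 3.3e-06, edgeR quasi-likelihood test, Benjamini-Hochberg). RPL23A, at the tunnel exit where the signal recognition particle docks, was lower in siURM1 than in the other knockdowns, by 0.51 for siNAE1 and 0.60 for siUBE2M relative to siURM1 (adjusted p = 1.1e-05 and 1.1e-06, edgeR quasi-likelihood test, Benjamini-Hochberg), and RPL4 was higher in siUBE2M than in siURM1 by 0.45 (adjusted p = 2.5e-06, edgeR quasi-likelihood test, Benjamini-Hochberg). RPL35, RPL23A and RPL4 were chosen after their values were seen.

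Members were also divided by the TOP run read at their annotated RefSeq start base, and the difference between the 2 kinds was not tested. In siNAE1, 33 of 46 members with a run were higher and 4 lower, with a median log2 fold change of 0.30, and 14 of 17 tested members without a run were higher and 1 lower, with a median of 0.33. In siUBE2M the higher members were 28 of 46 with a run and 13 of 17 without (medians 0.23 and 0.23), and in siURM1 31 of 46 and 14 of 17 (medians 0.30 and 0.29). Among all genes, 27.6%, 22.7% and 20.8% were higher and 27.1%, 22.6% and 20.8% lower, with medians of -0.00, 0.01 and -0.02. Across the 80 tested members, the log2 fold change had a Spearman correlation with canonical transcript length of 0.11 in siNAE1, 0.27 in siUBE2M and 0.19 in siURM1, and with control FPKM of -0.09, -0.15 and -0.06. These correlations run across genes of the same libraries, which are not independent replicates, and are given as a description.

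Ribosomal genes that the naming rule leaves out were mixed, with list medians of 0.27, 0.14 and 0.30 in siNAE1, siUBE2M and siURM1, and held larger changes in RPL36AL and RPL22L1. RPL36AL, whose protein is nearly identical to that of RPL36A, had 54.0, 60.1 and 56.4 CPM in the control libraries, 116, 134 and 141 CPM in siNAE1, 114, 116 and 131 CPM in siUBE2M, and 107 and 115 CPM in siURM1. All knockdown libraries were far above control, with log2 fold changes of 1.20, 1.08 and 0.97 (adjusted p = 1.7e-14, 4.5e-13 and 5e-11, edgeR quasi-likelihood test, Benjamini-Hochberg). RPL22L1 was lower in siNAE1 (-1.31) and siUBE2M (-0.73) and higher in siURM1 by 0.30 (adjusted p = 6.6e-14, 1.9e-08 and 0.0082, edgeR quasi-likelihood test, Benjamini-Hochberg), while RPL22, an RNA-binding protein of the same family, rose by 0.46, 0.42 and 0.47. RPL7L1 was -0.52 in siNAE1, -0.03 in siUBE2M and -0.19 in siURM1, called in siNAE1 and siURM1, beside RPL7 at 0.43, 0.43 and 0.52, called in all 3. RPL26L1 was -0.19, -0.49 and -0.62, called in siUBE2M and siURM1. RACK1, a signalling scaffold on the 40S subunit, rose by 0.27, 0.36 and 0.35, and FAU, a ubiquitin-like protein fused to a 40S protein, rose by 0.49 in siNAE1 and was not called in the others. Of the 7 genes on this list, 4 were higher and 2 lower in siNAE1, 3 and 2 in siUBE2M, and 4 and 2 in siURM1, against 27.6% and 27.1%, 22.7% and 22.6%, and 20.8% and 20.8% of all genes.

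Gene lists around the ribosome differed from each other, and their counts stand against 27.6% higher and 27.1% lower among all genes in siNAE1, 22.7% and 22.6% in siUBE2M, and 20.8% and 20.8% in siURM1. Translation factors and other genes known for TOP mRNAs formed a list with 19 tested genes. Of its listed genes, 14 had a RefSeq start, and 11 of these had a run. Among the 19, 12 were higher and 4 lower in siNAE1, 17 and 1 in siUBE2M, and 15 and 1 in siURM1. The medians were 0.37, 0.45 and 0.52. EIF4B, a cofactor of the helicase that opens 5′ UTRs, rose by 1.02, 1.55 and 1.05 (adjusted p = 9.3e-16, 8.6e-20 and 1.6e-14, edgeR quasi-likelihood test, Benjamini-Hochberg), whereas PABPC1, the poly(A)-binding protein, was lower in siNAE1 (-0.41) and higher in siUBE2M and siURM1 (0.47 and 0.69; adjusted p = 1.1e-07, 1.2e-08 and 4.3e-11, edgeR quasi-likelihood test, Benjamini-Hochberg). Of 52 ribosome biogenesis genes, 20 were higher and 10 lower in siNAE1, 4 and 33 in siUBE2M, and 8 and 19 in siURM1, with medians of 0.08, -0.21 and -0.10, so this list leaned down in the same siUBE2M and siURM1 cells where members were higher. In it, NOB1, the nuclease that makes the end of 18S rRNA, rose by 0.87, 1.02 and 1.16 (adjusted p = 4e-12, 1.8e-13 and 9e-14, edgeR quasi-likelihood test, Benjamini-Hochberg), and NOP58, a core protein of box C/D snoRNPs, was lower, at -0.55, -0.80 and -1.27 (adjusted p = 1.1e-08, 9.5e-12 and 1e-14, edgeR quasi-likelihood test, Benjamini-Hochberg). Of 76 mitochondrial ribosomal proteins, 39 were higher and 16 lower in siNAE1, 14 and 31 in siUBE2M, and 29 and 10 in siURM1, with medians of 0.27, -0.13 and 0.13. Of 14 host transcripts of snoRNAs, several of them also TOP RNAs, 8 were higher and 4 lower in siNAE1, the latter near the share of all genes, and 5 and 7 in each of siUBE2M and siURM1.

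Regulators of the ribosomal protein genes and of the response to ribosomal stress were mixed. Of 25 regulators, 7 were higher and 4 lower in siNAE1, 4 and 8 in siUBE2M, and 3 and 4 in siURM1. Of 20 p53 targets, 9 were higher and 6 lower in siNAE1, 6 and 3 in siUBE2M, and 4 and 9 in siURM1. Beside these counts, the shares of all genes higher and lower were 27.6% and 27.1%, 22.7% and 22.6%, and 20.8% and 20.8%, so several of the counts are near what all genes show. EIF4EBP1, the mTORC1-controlled inhibitor of cap-dependent translation, was lower, at -1.50, -1.04 and -0.60 (adjusted p = 2.6e-18, 2.8e-14 and 5.5e-08, edgeR quasi-likelihood test, Benjamini-Hochberg). MYC, which drives ribosome production, was higher in siNAE1 and siURM1 (0.50 and 0.63) and lower in siUBE2M (-0.72; adjusted p = 1.7e-08, 2.8e-09 and 3.4e-11, edgeR quasi-likelihood test, Benjamini-Hochberg). HEK293T cells carry viral T antigen, which binds p53, so p53 targets are a limited readout of the RPL5 and RPL11 pathway in this line. RPS27L, itself a p53 target and a member, was higher in all 3 knockdowns.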

How the data were processed

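Polyadenylated RNA of HEK293T cells in 11 libraries (control n = 3, siNAE1 n = 3, siUBE2M n = 3, siURM1 n = 2) was read from a deposited table of raw counts and FPKM per gene. According to the submitters' processing notes, the authors cleaned the reads by fastp, used HISAT2 2.0.5 for alignment to GRCh38 and made the counts per gene with featureCounts 1.5.0-p3. The deposited FPKM values were made by the authors from these counts by gene length and a library size that was 0.961 to 1.07 times the total counts. Strand setting, handling of reads with several matches and annotation version of the counting are not given in the sources used here.

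Of 58735 genes listed, 36039 had a count and 18368 passed filterByExpr. Library totals were 15703118, 15682341 and 15175945 counts in control, 13291419, 15092821 and 11733163 in siNAE1, 13465165, 14996068 and 14414818 in siUBE2M, and 16321391 and 14688019 in siURM1. All 11 libraries were fitted in 1 model with 4 groups in edgeR 4.0.16 (R 4.3.3; TMM, quasi-likelihood test, biological coefficient of variation 7.06%), with Benjamini-Hochberg adjustment over all genes tested, also for each pair of groups. Genes with an adjusted p under 0.05 were called. The detection limit for 0 counts is 3 counts, and it covers counting error only. Tables and figures used Python 3.11.15, pandas 2.3.3 and matplotlib 3.10.9, and the model was tested on simulated data.

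Alternatives were DESeq2 1.42.0, limma 3.58.1 on log2 FPKM with 0.1 or 1 added or with FPKM of at least 1, RLE factors, total-count scaling, TMM without the members, no filter, pseudogene counts added to the members, removal of a gene length trend, 2 groups per fit, a replicate block and leaving out each library. Members were named if they were DEGs, were among the 3 highest or 3 lowest changes of a knockdown at a mean of at least 10 CPM, were among the 3 highest or lowest in control FPKM, had a role or paralog of note, or were named after their values were seen, as stated. From the other lists (ribosomal genes outside the rule, translation factors and other TOP mRNAs, ribosome biogenesis, mitochondrial ribosomal proteins, snoRNA host transcripts, p53 targets, ribosomal stress regulators and cell type markers) genes were named from the 2 highest and 2 lowest called changes of each knockdown. A few genes that these rules name are not described. The members and lists were chosen with earlier results of these data known.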

Additional observations from a re-analysis of the deposited data

Results flagged for a closer look

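RPLP0 was marked because its change differed between knockdowns in a direct test: siNAE1 relative to siUBE2M had a log2 fold change of -1.05 and siNAE1 relative to siURM1 -1.14. RPL3L was marked for the same reason, at 1.36 for siUBE2M relative to siURM1 (adjusted p = 0.01, edgeR quasi-likelihood test, Benjamini-Hochberg), on 21 to 34 counts in siUBE2M and 11 and 13 in siURM1. Without siURM1 replicate 1 the RPL3L value was 1.17 (adjusted p = 0.11, same test). No group had the 4 libraries needed to test for a library far from the others.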

How the results depend on the processing

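Against control, no gene named by the stated rules reversed a called direction under any alternative. The counts that follow cover these genes and the comparisons with control only. RPS23, RPL12, RPL9, RPL35, RPL23A, RPL4, RACK1 and FAU were named otherwise and are not included. Apart from left-out libraries, 2928 of the values for named genes kept their side of the threshold, with the sign of some uncalled values near 0 turned, 66 fell short of it and 59 newly passed it; with a library left out these were 2702, 63 and 40.

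With total counts as scaling, the median log2 fold change of the members was 0.18 in siNAE1 and 0.20 in siURM1. Between the knockdowns, limma on FPKM called fewer members, with 0.1 added, 1 added and FPKM of at least 1 in turn: 13, 12 and 16 for siNAE1 and siUBE2M, 11, 11 and 11 for siNAE1 and siURM1, and 12, 12 and 11 for siUBE2M and siURM1, and the cause was not tested. As a share of summed FPKM the members held 10.6% in control, 11.2% in siNAE1, 12.1% in siUBE2M and 11.5% in siURM1, a share weighted by gene length. As a share of counts, adding pseudogene counts raised siURM1 from 10.1% to 10.5%. Against control, DESeq2 called 62, 47 and 59 members in siNAE1, siUBE2M and siURM1, and limma with 0.1 added called fewer, 59, 35 and 44. Without control replicate 2, RPLP2, RPS27 and RPL8 passed the threshold in siURM1 (0.28, 0.26 and 0.21), RPL5 in siUBE2M (0.21), and RPS2 in siNAE1 and siUBE2M (0.18 and 0.19).

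Leaving out 1 library at a time, the members called ranged from 60 to 66 in siNAE1, 38 to 58 in siUBE2M and 42 to 62 in siURM1, and among the knockdowns from 22 to 35 (siNAE1 against siUBE2M), 12 to 27 (siNAE1 against siURM1) and 14 to 30 (siUBE2M against siURM1). Where siURM1 kept 1 library, that library is assumed to vary like the other groups. The medians against control ranged from 0.26 to 0.37, 0.15 to 0.27 and 0.23 to 0.34. Members past the fold threshold ranged from 1 to 3 in siNAE1 and 0 to 1 in siURM1.

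Whether equal replicate numbers mark libraries prepared together is not stated in the labels. Deviations from group means correlated between -0.07 and 0.08 for equal numbers over all genes, and between -0.10 and 0.07 for unequal numbers. Over the members alone, equal numbers gave -0.325 to 0.472 and unequal numbers -0.51 to 0.519. These values cannot decide the pairing, since each group mean rests on few libraries and the siURM1 deviations mirror each other. A replicate block called 65, 54 and 62 members against control, and among the knockdowns 30 (siNAE1 against siUBE2M), 27 (siNAE1 against siURM1) and 31 (siUBE2M against siURM1), the last with 10 higher and 21 lower.

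The depth limits RPL3L and RPS10 most. The siURM1 group has 2 libraries, the control treatment is uncertain, how reads of overlapping genes and pseudogenes were counted is unknown, and RNA levels say nothing of ribosomal protein.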

Other observations

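Among genes around the ribosome, the following were also called in at least 1 knockdown. NAP1L1, a histone chaperone with a TOP mRNA, was -0.42 in siNAE1, 0.33 in siUBE2M and -1.17 in siURM1 on the log2 scale (adjusted p = 5e-07, 3.5e-05 and 1.6e-14, edgeR quasi-likelihood test, Benjamini-Hochberg). RRP9, a U3 snoRNP protein, had, in the same order, -0.18, -1.07 and -0.06 (adjusted p = 0.066, 1.1e-11 and 0.63, edgeR quasi-likelihood test, Benjamini-Hochberg), and RRP12, an export factor of pre-ribosomes, -0.48, -0.83 and -1.09 (adjusted p = 1.4e-06, 7.1e-11 and 5.5e-12, edgeR quasi-likelihood test, Benjamini-Hochberg). Among snoRNA hosts, SNHG3 had 1.26, 0.86 and 0.31, SNHG8 -0.70, -1.14 and -1.02, and SNHG16 0.39, 0.81 and 1.00. BTG2, an antiproliferative p53 target, had 1.56, 0.52 and 0.37. Across all 20 p53 targets the values ranged from -1.10 to 1.56 in siNAE1, -0.56 to 0.58 in siUBE2M and -1.18 to 0.60 in siURM1.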
